A study of Drosophila melanogaster with 4 samples.

Results

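Tweedle, Lcp and Ccp84 genes encode structural proteins of the insect cuticle. The members were every gene of the deposited table whose symbol starts with Twdl, with Lcp and a digit, or with Ccp84, which gave 47 of 15340 genes. Of these, 25 were Tweedle genes, 15 were Lcp genes and 7 were Ccp84 genes. RNA came from larvae in their 2nd instar, 48 h old, in 2 independent extractions per genotype. The methods name no dissected tissue and do not say that larvae were whole. The mutant larvae were homozygous for *Xbp1* ex79, an imprecise excision allele that lacks the start codon, the DNA-binding region and the site at which IRE1 cleaves the mRNA. The control larvae were *Xbp1* +/+ and came from a precise excision of the same parent insertion, so that each genotype is represented by 1 line. Where nothing else is said, values are normalized counts, that is, reads per gene divided by the size factor of the library.

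The cuticle is a chitin matrix that the epidermis secretes anew at each moult, and its protein genes are transcribed in short pulses that follow the ecdysone cascade. Lcp and Ccp84 proteins carry the Rebers-Riddiford consensus, a domain that binds chitin. Tweedle proteins form a separate, insect-specific family, named after a *TwdlD* mutant with short and stout larvae and pupae. Lcp1 to Lcp4 were described from the cuticle of late larvae, and the Lcp65A and Ccp84 genes lie in tandem clusters named after their cytological positions.

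The libraries held between 31416284 and 38601267 reads on genes, and 3 reads correspond to a normalized count between 2.69 and 3.62. Such floors cover counting error only. The targeted gene *Xbp1* was at 6087 and 5953 in mutant libraries, against 5521 and 7378 in control libraries (log2 fold change -0.08, standard error 0.21, limma adjusted p = 0.852). These counts cover the whole gene, including what the deletion leaves, and gave no check of the labels. Mutant and control below are the libraries so labelled. Larval serum protein, fat body and glue genes of the late larval list, which are known from the last larval instar whereas the labels give the 2nd, took 23.5% and 27.3% of the reads in mutant libraries, against 22.2% and 27.1% in control libraries. *Fbp1* and *Lsp1beta* were the most abundant of them, and 0 of the 9 that were tested passed in limma. All 3 muscle genes listed (*Mhc*, *Act57B* and *Tm2*) were detected in every library. Their sums were 322 and 424 in mutant libraries, against 207 and 275 in control libraries. These sums made up only 0.001% of the reads in each library. The 3 fat body genes listed took 6.3% and 6.5% in mutant libraries, against 5.1% and 7.2% in control libraries. The sums of the neuron, hemocyte and fat body genes overlapped between the groups. The enterocyte genes summed to 629 and 627 in mutant libraries, against 1663 and 381 in control libraries, but ran in opposite directions. *Myo31DF* was higher in both mutant libraries, at 624 and 618, against 329 and 363 in control libraries (limma adjusted p = 0.347, DESeq2 adjusted p = 0.108). *Jon65Aiii*, a gut protease gene, was lower in both, at 3.58 and 8.20, against 1333 and 16.9 in control libraries (limma adjusted p = 0.349, DESeq2 adjusted p = 0.0412). *Jon65Aiii* reached the minimum mean for a test only through control 1. Its value set control 1 apart in the sum. What part the makeup of the tissue had in the values of cuticle genes was not tested. In such larval RNA, fewer epidermal cells and less RNA per cell cannot be told apart.

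Most cuticle protein genes of these families were at or near 0 in all 4 libraries. A mean of at least 10, the minimum for a test, was reached by 7 of the 47 genes, namely *Twdlalpha*, *TwdlE*, *TwdlF*, *TwdlG*, *Lcp1*, *Lcp3* and *Lcp4*. Of the whole table, 31.6% of genes were under that minimum, against 40 of the 47 members. No read at all was found for 16 members, while 8.91% of all genes were listed at 0 throughout. A further 20 members had between 1 and 10 reads over the 4 libraries together. At 3 reads or fewer in every library stood 35 of the 47. These genes were not detectable, or hardly so, at this depth, which does not show them to be absent.

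**Figure D1:**
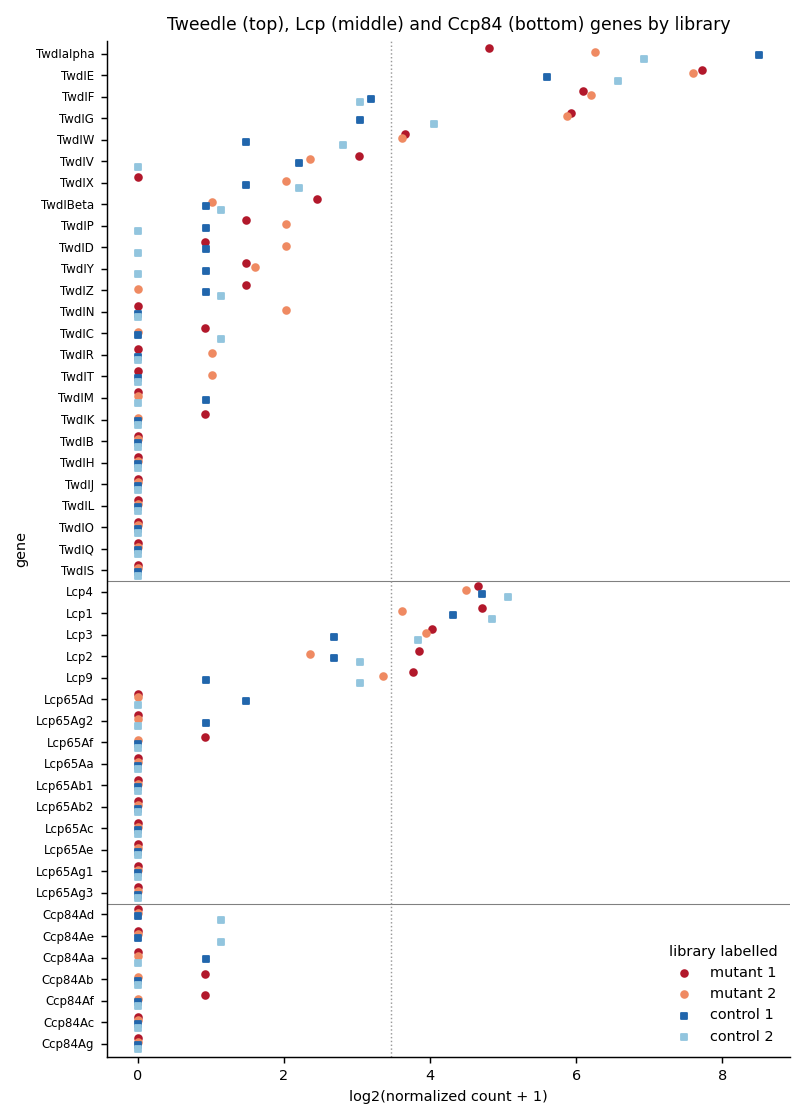
Level of each of the 47 genes in each library as log2(normalized count + 1), with Tweedle genes above, Lcp genes in the middle and Ccp84 genes below, ordered by mean within a family. Circles are the mutant libraries, squares the control libraries, and the dotted line marks a normalized count of 10. Only 7 genes have a mean of at least 10, and no Ccp84 gene has more than 1 read in any library.

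The families differed in how much of them was detected. Of the Tweedle genes 18 of 25 had a read somewhere and 4 were tested, of the Lcp genes 8 of 15 had a read and 3 were tested, and of the Ccp84 genes 5 of 7 had a read and 0 were tested. Over all 4 libraries, the Tweedle genes held 1559 reads, the Lcp genes 299 and the Ccp84 genes 5. Those 5 reads fell on 5 different genes, *Ccp84Ab* and *Ccp84Af* in mutant 1, *Ccp84Aa* in control 1, and *Ccp84Ad* and *Ccp84Ae* in control 2. No family difference was tested, since genes of a family share a library and are not replicates.

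Added up over the family, the Tweedle genes came to 396 and 433 in mutant libraries, against 438 and 251 in control libraries. The highest library was control 1 and the lowest control 2, so the groups overlapped. This sum rested on a few genes that ran in opposite directions. *Twdlalpha* alone made up 6.79% and 17.5% of it in mutant libraries, against 82.8% and 48.1% in control libraries. Without *Twdlalpha*, a sum chosen after the values were seen, the other 24 Tweedle genes came to 369 and 357 in mutant libraries, against 75.6 and 130 in control libraries. A sum without *Twdlalpha* and *TwdlE* was also chosen after the values were seen. Its 23 genes, mainly *TwdlF* and *TwdlG*, came to 159 and 163 in mutant libraries, against 27.9 and 36.2 in control libraries. Without *TwdlE* alone the sum was 185 and 239 in mutant libraries, against 391 and 157 in control libraries, and overlapped. *Twdlalpha* was the tested Tweedle gene that ran lower, so leaving it out favours the mutant libraries by construction. The sums without it are therefore no support for a difference. The 21 Tweedle genes other than the 4 tested held 35 and 32 reads in mutant libraries, against 14 and 11 reads in control libraries.

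The Lcp sum was 91.4 and 60.5 in mutant libraries, against 58.5 and 88.0 in control libraries. Here mutant 1 was highest and control 1 lowest, with control 2 above mutant 2, and the groups overlapped. The Ccp84 sum was 1.79 and 0 in mutant libraries, against 0.90 and 2.41 in control libraries, and each of these values is below 3 reads. The 3 families thus had 3 different orders of the libraries, and none of the 3 sums separated the groups.

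**Figure D2:**
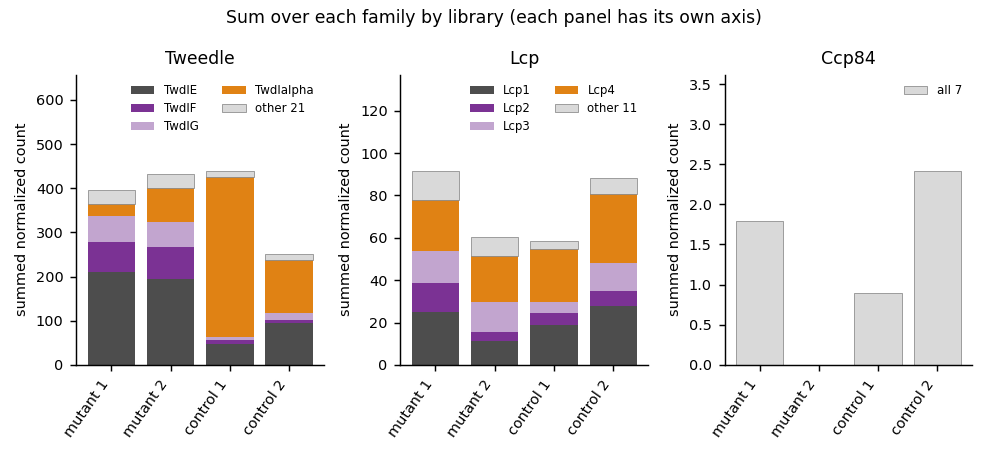
Summed normalized count of each family in each library, stacked by gene, each panel with its own axis starting at 0. The Tweedle sum of control 1 is mostly *Twdlalpha* (82.8%), while *TwdlE* is the largest share in mutant 1 (53.2%) and mutant 2 (44.8%).

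By limma on log2(normalized count + 1) with Benjamini-Hochberg adjustment over 10500 genes, 0 of the 7 tested members were past 0.05. Of all tested genes 0.00952% were called higher, which is the 1 gene *CG9451*, and 0% lower. At an unadjusted p under 0.05 stood 3 members that were higher (6.89% of all tested genes) and 1 that was lower (7.24%) in mutant libraries, all 4 of them Tweedle genes. By edgeR's quasi-likelihood test on the recovered reads 0 of the 7 passed, against 0.00952% of all genes. Run on recovered reads, DESeq2 called 2 of the 6 members to which it gave an adjusted p, against 3.48% of all such genes, and gave *Lcp3* none. *TwdlF* was called higher, as were 1.79% of such genes, and *Twdlalpha* lower, as were 1.69%. The median log2 fold change of the 4 tested Tweedle genes was 1.96 and that of the 3 tested Lcp genes -0.32, beside -0.03 over all genes tested. With a minimum mean of 50, which leaves *Twdlalpha* and *TwdlE* only, the Tweedle median was -0.30. For the Ccp84 genes there is no such value. *TwdlF* and *Lcp3* reached the minimum mean only through the mutant libraries, their control means being 7.67 and 9.33.

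*TwdlF* and *TwdlG* had the largest log2 fold changes of the 7 tested members. *TwdlF* (FBgn0037224; dm6, chromosome arm 3R, 4247020 to 4248313, plus strand) had 67.2 and 72.8 in mutant libraries, against 8.10 and 7.24 in control libraries. Both mutant libraries lay far above both control libraries, and the means were 70.0 ± 3.95 in mutant and 7.67 ± 0.61 in control libraries (SD, n = 2 each). The log2 fold change was 3.03 with a standard error of 0.45, and the limma adjusted p was 0.25. DESeq2 put the log2 fold change at 3.19 (standard error 0.75) with an adjusted p of 0.00236. By its unadjusted p in limma *TwdlF* ranked 42 among the 10500 genes, a set that it entered only through the mutant libraries.

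*TwdlG* (FBgn0037225; 3R, 4248723 to 4251341, minus strand) ends tail to tail with *TwdlF*. It had 60.0 and 57.4 in mutant libraries, against 7.20 and 15.7 in control libraries. The mutant libraries were nearly equal, whereas control 2, with 13 reads, was above control 1, with 8. The log2 fold change was 2.35 (standard error 0.55), with adjusted p values of 0.347 in limma and 0.0624 in DESeq2. Per kb of exon, *TwdlF* was at 54.4 and 58.9 and *TwdlG* at 27.7 and 26.5 in mutant libraries, against 6.56 and 5.86 for *TwdlF* and 3.33 and 7.24 for *TwdlG* in control libraries.

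Another gene of this stretch, *TwdlV* (4254708 to 4255833), was at 7.17 and 4.10 in mutant libraries, against 3.60 and 0 in control libraries, which is between 0 and 8 reads. Among the neighbours of *TwdlF* within 25 kb, a window chosen after the values were seen, *CG34305* was at 78.9 and 52.3 in mutant libraries, against 18.0 and 27.7 in control libraries (log2 fold change 1.48, standard error 0.47, limma adjusted p = 0.347). *CG14644*, which lies between *TwdlG* and *TwdlV*, was at 49.3 and 95.3 in mutant libraries, against 151 and 63.9 in control libraries, so that its groups overlapped. *Gel*, the gelsolin gene, was at 38504 and 45325 in mutant libraries, against 35655 and 52858 in control libraries, and also overlapped. Like *CG34305*, the neighbours *CG14642*, *DhpD* and *Or82a* (under the minimum mean) were higher in both mutant libraries, while *abs* and *CG9766* were lower in both. Over all genes tested these shares were 26.2% and 27.9%. No difference between *TwdlF* or *TwdlG* and these neighbours was tested.

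**Figure D3:**
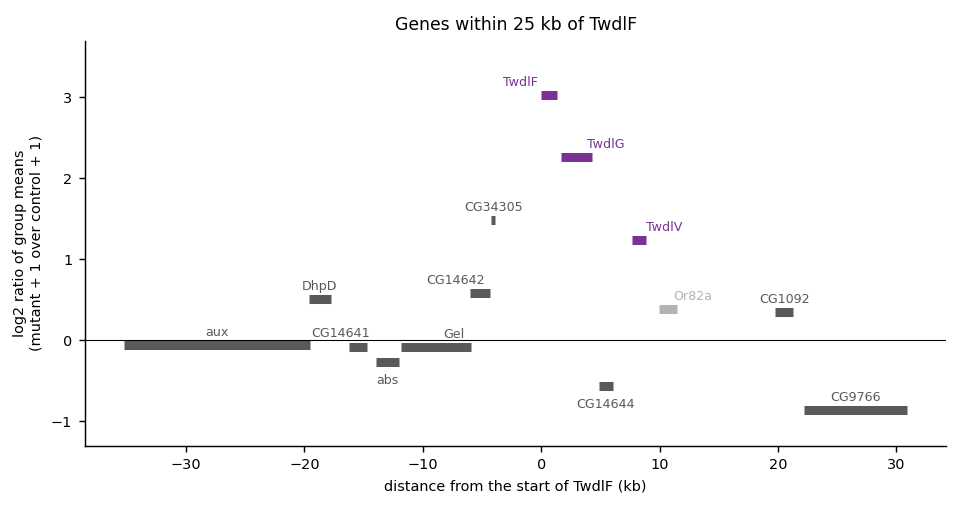
Genes within 25 kb of *TwdlF*, drawn to scale by distance from its start (kb), at the log2 ratio of the group means after adding 1 to each, mutant over control. Tweedle genes are purple, other tested genes dark grey and *Or82a*, under the minimum mean, light grey. *TwdlF* and *TwdlG* stand highest, at 3.03 and 2.26, and *CG14644* between *TwdlG* and *TwdlV* is at -0.57.

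*TwdlE* (FBgn0031957; 2L, 7857957 to 7860839, minus strand) was among the highest members per kb of exon, with 156 and 144 in mutant libraries, against 35.4 and 69.9 in control libraries. In normalized counts it had 211 and 194 in mutant libraries, against 47.7 and 94.1 in control libraries. Both mutant libraries were above both control libraries, and control 2 was nearer to them than control 1. The log2 fold change was 1.58 (standard error 0.41), with adjusted p values of 0.347 in limma and 0.0676 in DESeq2.

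Of the 1346 exonic bases of *TwdlE*, 968 lie opposite exons of *lectin-28C*, a lectin gene on the other strand. The kit keeps the strand, but the strand setting of the counting is not given in the sources used here, so reads of the 2 genes may not be fully separated. *lectin-28C* was at 1923 and 2229 in mutant libraries, against 1039 and 1756 in control libraries (log2 fold change 0.62, standard error 0.29, limma adjusted p = 0.357). Of the reads of both genes together, *TwdlE* held 9.87% and 8.0% in mutant libraries (exact 95% intervals 8.70% to 11.1% and 6.94% to 9.17%). In the control libraries it held 4.39% and 5.08% (3.31% to 5.71% and 4.04% to 6.31%). The share was thus higher in both mutant libraries, beyond counting error.

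*Twdlalpha* (FBgn0052574; X, 16742847 to 16744365, plus strand) ran the other way. It had 26.9 and 75.9 in mutant libraries, against 363 and 121 in control libraries. Every library differed widely from the next, control 1 being highest and mutant 1 lowest, and the groups did not overlap. The log2 fold change was -2.18 (standard error 0.73), with an adjusted p of 0.347 in limma. DESeq2 gave -2.24 (standard error 0.71, adjusted p = 0.0471). That call was lost, with an adjusted p of 0.0589, when DESeq2 was given the 10500 tested genes only, which was added once the results were known. Without control 1 the limma log2 fold change was -1.39.

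The start of *Twdlalpha* shares 72 exonic bases with the end of *CG32568* (16740906 to 16742918), a gene of the same strand. *CG32568* had 12.5 and 43.1 in mutant libraries, against 221 and 69.9 in control libraries, the same order as *Twdlalpha*. Of the reads of both genes together, *Twdlalpha* held 68.2% and 63.8% in mutant libraries, against 62.1% and 63.3% in control libraries. The exact 95% intervals (52.4% to 81.4% and 54.4% to 72.5% in mutant libraries, against 58.2% to 65.8% and 55.3% to 70.8% in control libraries) all overlapped, so the ratio of the 2 genes was not shown to differ between libraries. Reads within the shared bases belong to neither gene alone. *Twdlalpha* lies inside *goe*, on its opposite strand and outside its exons, and *goe* (named *CG9634* in the table) was at 75.3 and 85.1 in mutant libraries, against 60.3 and 80.8 in control libraries.

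The other 3 Tweedle genes of the X cluster did not share the level of *Twdlalpha*. *TwdlX*, *TwdlY* and *TwdlZ* lie upstream of it, also inside *goe*, and had at most 3 reads in any library. Its library order was also that of the spermatocyte list, a list of 10 testis genes chosen with earlier results known, whose sum was 212 and 596 in mutant libraries, against 1892 and 769 in control libraries. Of that list 8 of 10 genes had this order from control 1 down to mutant 1, which was also the most frequent order over all genes tested (18.05%), *topi* had another and *tomb* was at 0. Of the 9 tested, limma called 0 and DESeq2 called 3 lower (*aly*, *sa* and *vis*), against 1.69% of all genes to which it gave an adjusted p, with a median log2 fold change of -2.57. The part of testis RNA in the values of *Twdlalpha* was not tested.

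**Figure D4:**
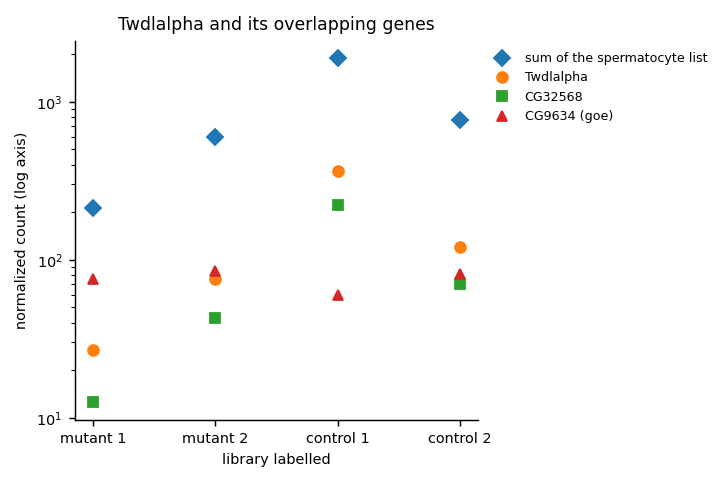
Normalized counts (log axis) of *Twdlalpha*, of *CG32568*, which overlaps its start on the same strand, of *CG9634* (*goe*), whose intron holds it on the opposite strand, and of the sum of the spermatocyte list, in each library. The spermatocyte sum, *Twdlalpha* and *CG32568* are all highest in control 1 and lowest in mutant 1, while *CG9634* stays between 60.3 and 85.1.

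The largest Tweedle cluster was almost empty. In the stretch of chromosome arm 3R from 26619118 to 26641054 lie 12 Tweedle genes, among them *TwdlD*, the founder of the family. Together they held 17 reads in 4 libraries, and 6 of the 12 had none. Their sum was 3.58 and 10.3 in mutant libraries, against 2.70 and 0 in control libraries. *TwdlD* itself was at 0.90 and 3.08 in mutant libraries, against 0.90 and 0 in control libraries, none of which exceeds 3 reads.

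Among the remaining Tweedle genes, *TwdlW* (3R, 17141208 to 17142404) came next in level. It had 11.6 and 11.3 in mutant libraries, against 1.80 and 6.03 in control libraries, which is 13 and 11 reads against 2 and 5. Both mutant libraries were again above both control libraries, and control 1 was lowest. *TwdlBeta*, *TwdlC* and *TwdlT* had at most 5 reads in any library. Of the 24 members that had a read but were under the minimum mean, 5 (*TwdlP*, *TwdlV*, *TwdlW*, *TwdlY* and *Lcp9*) lay above both controls in both mutant libraries. The share among all such genes was 21.0%, so this count was near the background. None lay below both controls, against 15.3% of such genes.

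The Lcp genes did not separate the groups in a common direction. *Lcp4* (FBgn0002535; 2R, 8437647 to 8438495) had the highest mean of the family, with 24.2 and 21.5 in mutant libraries, against 25.2 and 32.6 in control libraries. The mutant libraries were below both controls by a narrow margin (log2 fold change -0.32, standard error 0.46, limma adjusted p = 0.728). *Lcp1* (FBgn0002531; 8430115 to 8431243) had 25.1 and 11.3 in mutant libraries, against 18.9 and 27.7 in control libraries. Its groups overlapped, with mutant 2 lowest (log2 fold change -0.42, standard error 0.61, limma adjusted p = 0.729), and its direction turned without mutant 2, to 0.13.

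*Lcp3* (FBgn0002534; 8435310 to 8436095) had 15.2 and 14.4 in mutant libraries, against 5.40 and 13.3 in control libraries. Only control 1 stood clearly apart (log2 fold change 0.72, standard error 0.67, limma adjusted p = 0.577), and without control 1 the log2 fold change was 0.15. *Lcp2*, under the minimum mean, had 13.4 and 4.10 in mutant libraries, against 5.40 and 7.24 in control libraries, and overlapped. *Lcp1* and *Lcp2* are close paralogs, so reads may have been split between them or dropped. The 4 genes lie side by side on 2R, and their sum was 78.0 and 51.3 in mutant libraries, against 54.9 and 80.8 in control libraries. Per kb of exon, the mean over all libraries was 32.7 for *Lcp4*, 19.5 for *Lcp1*, 16.5 for *Lcp3* and 8.14 for *Lcp2*. In the mutant libraries *Lcp4*, at 30.5 and 27.2 per kb of exon, was below *TwdlF* and near *TwdlG*, whereas in the control libraries, at 31.8 and 41.1, it was above both.

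*Lcp9*, which lies apart on 2R from 24779979 to 24780428, had 12.5 and 9.23 in mutant libraries, against 0.90 and 7.24 in control libraries. The gap rested on control 1, which held 1 read. The 10 Lcp65A genes, a tandem cluster on 3L from 6130386 to 6151803, held 4 reads in all. They had 1 and 0 reads in mutant libraries, against 3 and 0 in control libraries, and 7 of the 10 had none. Several are near-identical copies, such as *Lcp65Ag1* and *Lcp65Ag2* or *Lcp65Ab1* and *Lcp65Ab2*. Reads that fit more than 1 copy may have been dropped in counting, so the zeros of such copies are uncertain. The 7 Ccp84 genes, on 3R from 6686728 to 6704903, gave 2 and 0 reads in mutant libraries, against 1 and 2 in control libraries.

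**Figure D5:**
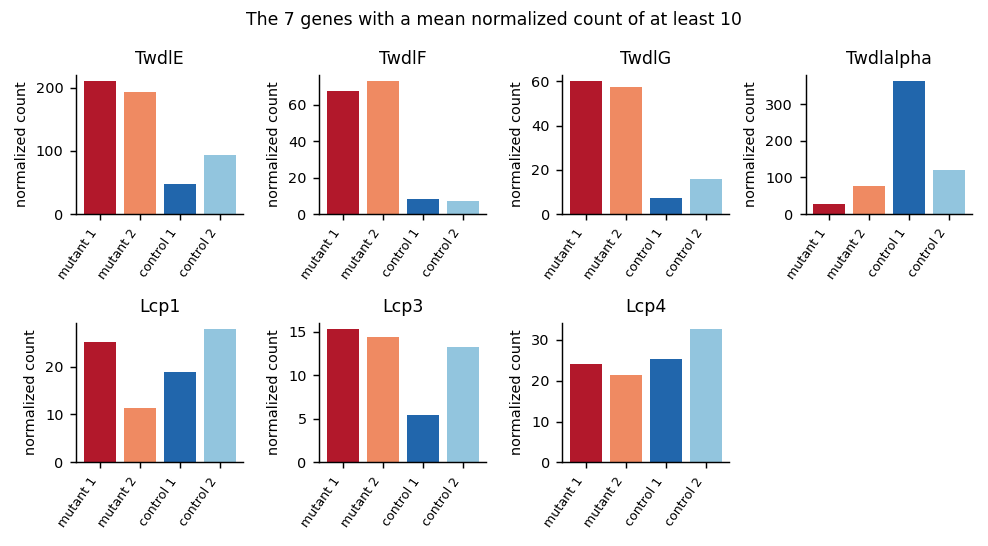
Normalized counts of the 7 tested members in each library, each panel with its own axis starting at 0. *TwdlE*, *TwdlF* and *TwdlG* are higher in both mutant libraries, *Twdlalpha* is lower in both, and the bars of *Lcp1* overlap between the groups.

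The order of the libraries was compared with that of all genes tested. Of the 24 possible orders, the most frequent ran from control 1 over control 2 and mutant 2 down to mutant 1 and was held by 18.05% of the 10500 genes, *Twdlalpha* among them. Its reverse, from mutant 1 over mutant 2 and control 2 down to control 1, came next with 12.51% and was held by *TwdlE*, *TwdlG* and *Lcp3*. *TwdlF* had the order mutant 2, mutant 1, control 1, control 2, which 2.3% of genes share. Both mutant libraries were above both control libraries for 4 of the 7 members (26.2% of genes tested) and below them for 2 (27.9%), so that 6 of the 7 did not overlap, against 54.1% of genes tested. With 2 libraries against 2, an exact two-sided permutation test of a single gene cannot go below p = 0.333.

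Of 47 other tested genes of cuticle formation, in 6 lists, limma called 0, against 0.00952% of all genes tested. DESeq2 also called 0 of them, against 3.48% of all genes, and gave 10 of the 47 no adjusted p. With so few genes these counts are near the background. Of 81 other cuticle genes, mostly of the Cpr series, 11 were tested and 0 passed. The most abundant, *Cpr49Ac*, was at 50911 and 48426 in mutant libraries, against 44992 and 56558 in control libraries, and *Pcp*, a pupal cuticle gene, was at 1189 and 767 in mutant libraries, against 772 and 914 in control libraries. Their groups overlapped. The median log2 fold change of the 11 was 0.07. Of 15 genes for building and remodelling chitin, 10 were tested and 0 passed, with a median log2 fold change of 0.04. Among them *mmy*, which makes the activated sugar for chitin, was at 1384 and 1323 in mutant libraries, against 1004 and 1008 in control libraries, and *Gfat2*, an earlier enzyme of that pathway, was at 836 and 838 in mutant libraries, against 614 and 578 in control libraries. Both were higher in both mutant libraries (log2 fold changes 0.43 and 0.49), with limma adjusted p values of 0.347 each. The largest difference of the list ran the other way. *kkv*, the chitin synthase gene, chosen after its values were seen, was at 13.4 and 14.4 in mutant libraries, against 61.2 and 48.2 in control libraries (log2 fold change -1.89, standard error 0.44, limma adjusted p = 0.347). Of the 10 genes tested, 3 were higher and 3 lower in both mutant libraries. Over all genes tested the shares were 26.2% and 27.9%, so these counts were near the background.

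Of 9 tanning genes, which harden and colour the cuticle, 8 were tested and 0 passed, with a median of -0.30. Of the 8, 1 was higher and 3 lower in both mutant libraries, against 26.2% and 27.9% of all genes tested. *Pu*, whose product makes the cofactor of tyrosine hydroxylase, was lower in both mutant libraries, at 33049 and 39630, against 41720 and 44840 in control libraries. *Dat*, an acetyltransferase of dopamine, was at 142 and 230 in mutant libraries, against 176 and 301 in control libraries, and overlapped. The largest difference of the list was that of *t*, chosen after its values were seen. *t* was at 114 and 98.4 in mutant libraries, against 215 and 229 in control libraries. Its log2 fold change was -1.06 (standard error 0.26, limma adjusted p = 0.347). All 15 transcription factor genes of the moulting cascade were tested and 0 passed, with a median of 0.23. Of the 15, 3 were higher and 3 lower in both mutant libraries, against 26.2% and 27.9% of all genes tested. The ecdysone-induced factor *Eip75B* was at 17907 and 15297 in mutant libraries, against 9939 and 9327 in control libraries (log2 fold change 0.78, standard error 0.20, limma adjusted p = 0.347). *br*, the Broad gene, was at 17387 and 13496 in mutant libraries, against 12256 and 13891 in control libraries, and overlapped. The largest difference of the list ran lower, in *vvl*, chosen after its values were seen. *vvl* was at 2.69 and 4.10 in mutant libraries, against 10.8 and 24.1 in control libraries. Its log2 fold change was -1.99 (standard error 0.73, limma adjusted p = 0.347), and it reached the minimum mean only through the control libraries.

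Of 6 moulting peptide and receptor genes 2 were tested and 0 passed. *ETHR*, the receptor of ecdysis triggering hormone, was at 46.6 and 47.2 in mutant libraries, against 10.8 and 21.7 in control libraries (log2 fold change 1.55, standard error 0.52, limma adjusted p = 0.347). *Ccap*, a peptide of ecdysis, was at 16.1 and 16.4 in mutant libraries, against 14.4 and 13.3 in control libraries. Of 24 Osiris genes, which are active while cuticle is laid down, 1 was tested and 0 passed. This was *Osi23*, at 144 and 156 in mutant libraries, against 63.9 and 85.6 in control libraries. *Osi6*, just under the minimum mean, was at 1.79 and 5.13 in mutant libraries, against 20.7 and 8.44 in control libraries.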

How the data were processed

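Larval RNA of 2 *Xbp1* mutant and 2 control extractions was analysed. Per the labels and the study's methods, total RNA depleted of ribosomal RNA was made into stranded libraries, aligned to dm6 with TopHat2 2.1.1, counted per gene with HTSeq 0.6.1 and normalized with DESeq2. The overlap mode, strand setting and annotation of the counting are not given in the sources used here. The deposited values are a signal of counts divided by the authors' size factor. All of them (100.0% in each library, tolerance 0.01) were whole multiples of 1 step, and the reads recovered in this way numbered 31416284 to 38601267 per library. The table names genes only. They were looked up in Ensembl's annotation for dm6 (11817 exactly, 3239 by synonym, 284 not), and all 47 members were matched.

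Groups were compared with limma (3.58.1, R 4.3.3; eBayes with trend) after adding a pseudocount of 1 and taking log2. The minimum mean was 10, which left 10500 genes, and p-values were adjusted by Benjamini-Hochberg with a threshold of 0.05. The pseudocount makes fold changes of low genes smaller. DESeq2 (1.42.0, all genes) and edgeR (4.0.16) on recovered reads, other pseudocounts, filters and scalings, the replicate block and leaving out each library were alternatives. The tests were checked on simulated counts. Members and gene lists were chosen with earlier results of these data known. In full are given the 4 highest Tweedle and Lcp members and every member called by any tool, and of other lists the 2 highest genes. *CG34305*, *CG14644*, *Gel*, *CG32568*, *CG9634*, *lectin-28C*, *Proct*, *CG32572*, *kkv*, *vvl*, *t*, *Myo31DF*, *Jon65Aiii*, *TwdlD*, *TwdlV*, *TwdlW* and *Lcp9* were chosen after their values were seen. Nothing shows whether an extraction was a separate culture, so p-values measure the spread between extractions.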

Additional observations from a re-analysis of the deposited data

How the results depend on the processing

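Direction was kept by *Twdlalpha*, *TwdlE*, *TwdlF*, *TwdlG*, *Lcp3* and *Lcp4* under every alternative that gave a value, while *Lcp1* ranged from -0.96 to 0.13 (log2) over the fits that left out 1 library. In limma 1 gene of 10500 was called, with 1483 at an unadjusted p under 0.05. Calls numbered 3 with no filter, 16 with quantile normalization (4 lower, 12 higher), 14 with each library scaled to the same total (4 lower, 10 higher), 346 with DESeq2 (168 lower, 178 higher), 320 with DESeq2 on tested genes only, and 0 to 170 without 1 library, where a lone library is assumed to vary like the other group. The 170 calls (131 lower, 39 higher) came without mutant 2, and 0 calls without either control library. Quantile normalization moved the median of all genes to 0.07. Members called numbered 0 in limma, 2 with DESeq2 and 1 with DESeq2 on tested genes only. The median of the Tweedle genes was 1.96, against 0.86 with no filter (18 genes), -0.30 with a mean of at least 50 (2 genes, *Twdlalpha* and *TwdlE*), and 1.47 to 2.46 without 1 library. Both filters change which genes the median holds. For Ccp84 no median could be given with the minimum mean. The cause of the other shifts was not tested.

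Adding a replicate block to limma left 0 calls (861 at an unadjusted p under 0.05) and 0 members (3 at an unadjusted p under 0.05). Deviations of same-numbered libraries correlated at -0.44 across genes. With 2 libraries per group the deviations within a group mirror each other, so this value cannot show whether the numbers pair the samples. A crossed pairing, added with the results known, gave 1800 calls among 10500 genes, and 4 among the 7 tested members. Given that correlation, taken from these same values, a crossed block lowers the residual spread by construction. These calls are therefore no support for a difference. Few reads limit most members, 35 of 47 having at most 3 reads in every library.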

Other observations

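Some genes beside the members had values that belong to no family described above, and they were chosen after their values were seen. *Proct*, which encodes the neuropeptide proctolin and lies next to *TwdlE*, was at 47.5 and 22.6 in mutant libraries, against 4.50 and 2.41 in control libraries. The log2 fold change of *Proct* was 2.96 ± 0.69 (standard error), and the adjusted p was 0.347 in limma and 0.0646 in DESeq2. *Proct* reached the minimum mean only through the mutant libraries, its control mean being 3.46. *CG32572*, within 25 kb of *Twdlalpha*, was at 23.3 and 51.3 in mutant libraries, against 261 and 101 in control libraries. It had the library order of *Twdlalpha*, and its log2 fold change was -2.20 ± 0.63 (standard error), with adjusted p values of 0.347 in limma and 0.0279 in DESeq2.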
